A study of Mus musculus with 6 samples.

Results

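The 28 genes described here make cholesterol, sense it, control its uptake, move it inside the cell and export it. No lipoprotein receptor is among them. They were picked by name as a pathway, with earlier results of these data known. Their probes were found through the RefSeq accession that each array probe carries. All 28 were measured, among 15307 genes tested in whole kidneys of 3 Nampt conditional knockout mice and 3 control mice, with 1 single-colour Agilent microarray per animal. The knockouts are labelled iNampt-conditional knockout and the controls only as Control. Both groups are male C57BL/6J mice. Nampt encodes the rate-limiting enzyme of NAD salvage, and the series title places the deletion in renal proximal tubules. The Cre driver, the deleted exons and the ages of the mice are not given in the sources used here. Since whole kidneys were used, cells that were not targeted contribute to every value, and fewer cells of a type cannot be told apart from less RNA per cell.

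Cholesterol is built from acetyl-CoA through mevalonate, squalene and lanosterol. When membranes run short of sterol, SCAP escorts the transcription factor SREBP2 out of the endoplasmic reticulum, and SREBP2 switches on the synthesis enzymes and lipoprotein uptake. INSIG proteins hold SCAP back when sterol is plentiful. Surplus sterol, as oxysterol, activates the liver X receptors (LXR), which switch on the exporters ABCA1 and ABCG1 and the ubiquitin ligase MYLIP, which sends lipoprotein receptors to the lysosome.

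Nampt itself, which checks the labels, had a normalised log2 signal of 1.80, 1.5 and 1.53 in the knockouts, against 2.78, 2.59 and 2.65 in the controls. The difference was -1.06 with an SE of 0.10 (adjusted p = 0.0431 by limma), a call lost under 8 of 17 other settings. Normalised log2 signal here means log2 of the processed spot intensity minus the 75th percentile of the array, so 0 is the signal of the probe at that percentile. All 12 of 12 proximal tubule markers were measured, with a median difference of 0.02. Of 7 tubular injury markers, 6 were higher at an unadjusted p under 0.05 and 0 lower, against 6.69% and 6.13% of all genes, with a median difference of 0.82, and 0 passed the adjusted test. Havcr1, a surface protein gene of damaged tubule cells, had log2 signals of -1.9, 0.59 and 0.23 in the knockouts, against -3.77, -4.17 and -4.27 in the controls (difference 3.71 ± 0.65, limma adjusted p = 0.138). Lcn2 was at 1.12 ± 0.21 and Sox9 at 0.82 ± 0.17, and for these 3 genes every knockout lay above every control. The summed signal of the 7 overlapped, at 115, 119 and 108 in the knockouts, against 97.6, 103 and 122 in the controls. Clu, the brightest of the 7 and at -0.01 ± 0.11, weighs most in this sum. The medians of the 7, relative to the control mean, were 0.33, 1.05 and 0.98 in the knockouts, against -0.08, -0.09 and -0.03 in the controls. The part of injury in the values of the cholesterol genes was not tested. Spots well above background were 61.5%, 58.1% and 57.3% in knockouts 1, 2 and 3, against 62.8%, 63.3% and 61.9% in controls 1, 2 and 3. The lowest signal above background was 29.6 and 32.2 in knockouts 2 and 3, and between 18.5 and 20.9 on the other arrays. As read from the scan names, all 3 controls and knockout 1 lay in the first slide row. Knockouts 2 and 3, the arrays with the lower shares above background, lay in the second row. Only knockout 1 can therefore be set against controls within a row. Whether all arrays shared a single slide was not checked. The 3 controls were spread for the synthesis genes, with control 1 the lowest and control 3 the highest for most of them, as given below.

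RefSeq promoter windows of build GRCm38.p6, from 250 bases before to 50 after the start of a transcript, were found for 22 of the 28 genes, with 29 windows in all. No window was listed for Fdps, Fdft1, Sqle, Stard4, Npc1 and Abcg1. The 250 upstream bases of 4 genes follow, Hmgcs1 for its match to the sterol regulatory element, Cyp51 and Hsd17b7 as the synthesis genes with the smallest p, and Abca1 as the gene that differed in the other direction. Capitals mark the sterol regulatory element core TCACNCCAC in Hmgcs1, the NF-Y box CCAAT in Cyp51 and, read on the other strand, in Hsd17b7, and in Abca1 an LXR-type direct repeat, 2 half-sites GGTNA with 5 free bases between them, read on the other strand.
Hmgcs1, chr13:119690101-119690350, plus strand: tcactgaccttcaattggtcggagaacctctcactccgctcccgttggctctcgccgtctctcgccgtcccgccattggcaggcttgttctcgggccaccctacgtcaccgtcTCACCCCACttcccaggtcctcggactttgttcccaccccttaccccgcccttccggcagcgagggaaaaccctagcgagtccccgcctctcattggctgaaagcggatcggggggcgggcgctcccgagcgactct
Cyp51, chr5:4104698-4104947, minus strand: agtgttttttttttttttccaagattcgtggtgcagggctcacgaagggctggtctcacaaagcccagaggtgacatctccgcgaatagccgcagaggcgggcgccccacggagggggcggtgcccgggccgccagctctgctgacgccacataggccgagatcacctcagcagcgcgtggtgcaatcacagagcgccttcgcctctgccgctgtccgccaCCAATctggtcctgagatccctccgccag
Hsd17b7, chr1:169969206-169969455, minus strand: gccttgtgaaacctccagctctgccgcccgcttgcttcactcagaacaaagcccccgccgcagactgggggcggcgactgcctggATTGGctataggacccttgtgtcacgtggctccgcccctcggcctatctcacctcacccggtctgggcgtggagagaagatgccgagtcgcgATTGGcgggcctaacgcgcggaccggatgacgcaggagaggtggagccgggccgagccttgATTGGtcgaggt
Abca1, chr4:53159896-53160145, minus strand: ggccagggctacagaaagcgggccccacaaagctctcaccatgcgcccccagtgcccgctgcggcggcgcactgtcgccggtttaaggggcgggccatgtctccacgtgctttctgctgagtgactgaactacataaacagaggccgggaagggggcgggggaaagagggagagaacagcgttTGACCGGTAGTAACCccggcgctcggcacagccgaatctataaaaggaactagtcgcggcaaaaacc
In Hmgcs1 the core begins 137 bases before the start. The CCAAT box of Cyp51 begins 29 bases before its start, and the 3 boxes of Hsd17b7 begin 165, 73 and 12 bases before its start. The repeat of Abca1 begins 67 bases before its start. None of these matches overlaps another of the motifs searched.

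Both strands of the 300-base windows were searched for 4 motifs. CCAAT was found in 14 of the 18 windows of the synthesis genes, against 37.4% of all 32851 windows in the table. The Sp1 box GGGCGG was found in 15 of those 18 windows, against 35.7% of all windows. TCACNCCAC was in 1 of the 29 windows of the whole pathway, that of Hmgcs1, against 1.24% of all windows. The direct repeat was also in 1 of 29, that of Abca1, against 0.718% of all windows. These letters describe the windows. They are not measured binding sites, and a window without a match may still be bound.

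No gene of the pathway passed a Benjamini-Hochberg adjusted p of 0.05 over all genes by limma, in either direction. Over all 15307 genes 0.17% passed, 0.0653% lower and 0.105% higher. At an unadjusted p under 0.05 there were 4 of 28 lower, namely Cyp51, Hsd17b7, Pmvk and Mvd, and 1 of 28 higher, Abca1, where 6.13% of all genes were lower and 6.69% higher at that level, 12.8% in all. All 3 knockouts lay below all 3 controls for 7 of the 28 genes and above them for 1, while 10.5% of all genes lay wholly below, 9.04% wholly above and so 19.5% apart in either direction. The groups overlapped for the other 20 genes.

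**Figure D1:**
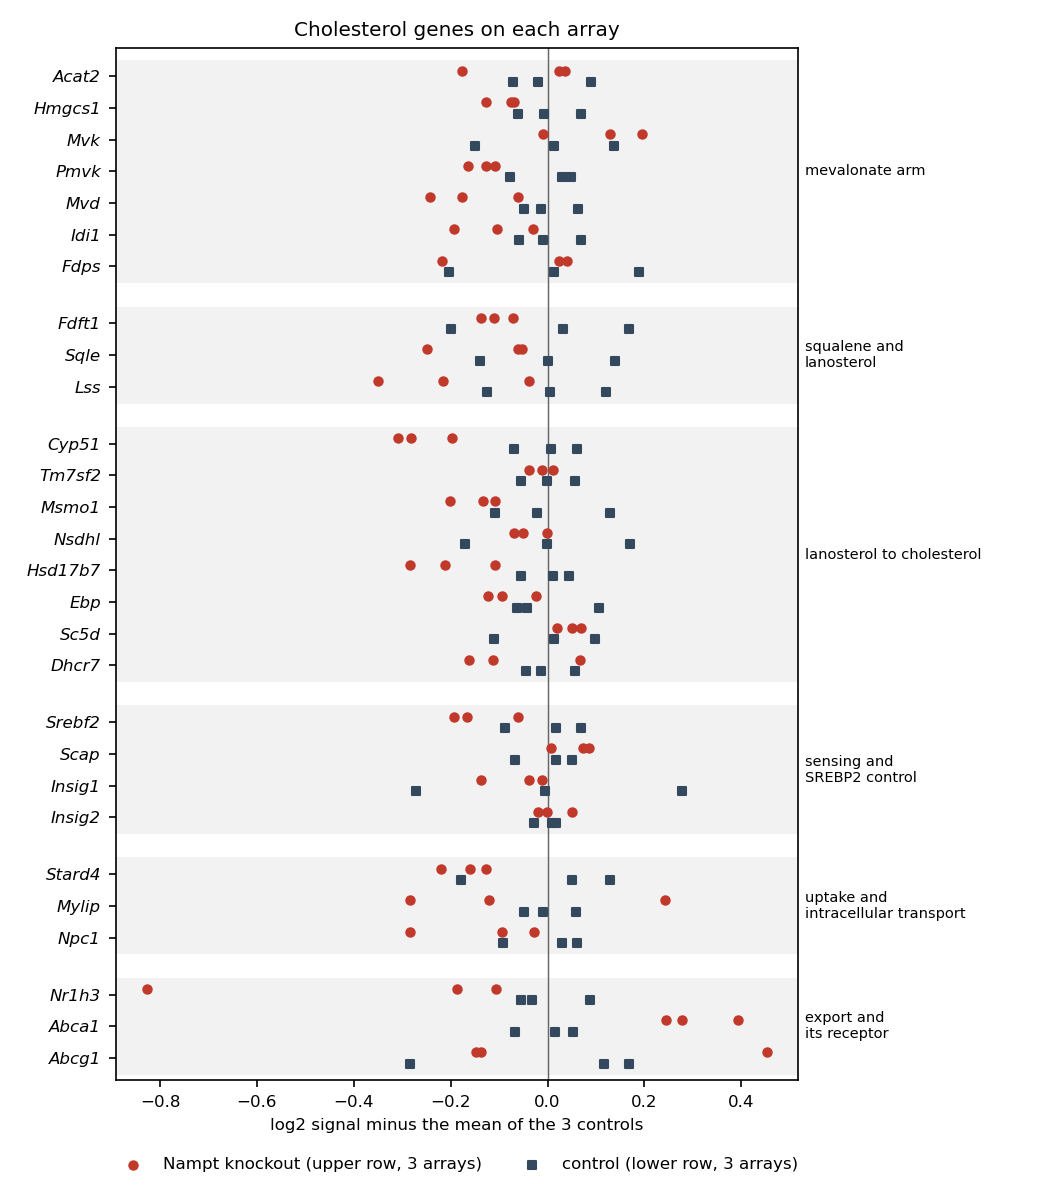
The 28 genes are listed by role down the page. Each point is 1 array, placed by its log2 signal minus the mean of the 3 controls, with the 3 knockouts as circles above the 3 controls as squares. Most synthesis genes have knockout points left of 0, the 3 controls of Insig1 are spread from -0.27 to 0.28, and Abca1 is the gene whose knockout points all lie to the right of its controls.

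Most of the 18 synthesis enzymes had slightly lower values in the knockouts, although none passed the test. Their differences were below 0 for 16 of the 18, against 52.9% of all genes, with a median of -0.10 on the log2 scale against -0.01 over all genes. For 6 of the 18, namely Hmgcs1, Pmvk, Mvd, Cyp51, Msmo1 and Hsd17b7, every knockout lay below every control, against 10.5% of all genes. The sizes were small, from -0.26 for Cyp51 to 0.11 for Mvk, and the genes share the same 6 arrays, so their counts are not independent. Without control 3, 12 of the 18 were below 0, against 47.5% of all genes, the list median was -0.05, and the number with every knockout below every control was 6, against 13.5% of all genes.

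In the mevalonate arm, which runs from acetyl-CoA to farnesyl diphosphate, 6 of 7 genes were below 0. Pmvk, phosphomevalonate kinase, had log2 signals of 3.34, 3.30 and 3.36 in the knockouts, against 3.39, 3.50 and 3.52 in the controls. Mvd, the mevalonate diphosphate decarboxylase that follows it in the pathway, had 2.24, 2.42 and 2.30 in the knockouts, against 2.43, 2.47 and 2.54 in the controls. For both genes all knockouts lay below all controls, by a narrow margin for the knockout nearest to them. The difference was -0.13 ± 0.05 for Pmvk (log2, SE; limma unadjusted p = 0.0463, adjusted p = 0.381) and -0.16 ± 0.06 for Mvd (unadjusted p = 0.0483, adjusted p = 0.387). Hmgcs1, the synthase that makes HMG-CoA, had log2 signals of 6.67, 6.67 and 6.62 in the knockouts, against 6.68, 6.74 and 6.81 in the controls. These groups touch almost at control 1, and the difference of -0.09 ± 0.05 (adjusted p = 0.544) stood against an SD of 0.06 among controls. Idi1, isopentenyl diphosphate isomerase, was at -0.11 ± 0.06, Fdps, farnesyl diphosphate synthase, at -0.05 ± 0.12 and Acat2, the cytosolic acetoacetyl-CoA thiolase, at -0.04 ± 0.08. Mvk, mevalonate kinase, was at 0.11 ± 0.09, and knockouts 1 and 3 lay within the range of the controls while knockout 2 lay above it.

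The 3 genes that carry farnesyl diphosphate to lanosterol were below 0 with overlapping groups. Lss, lanosterol synthase, had log2 signals of -0.24, 0.08 and -0.10 in the knockouts, against -0.01, 0.12 and 0.23 in the controls. Knockout 2 lay among the controls, and the difference was -0.20 ± 0.10 (limma adjusted p = 0.485). Sqle, the squalene epoxidase that limits the rate of this stretch, was at -0.12 ± 0.09, with 3.70, 3.89 and 3.88 in the knockouts and 3.81, 3.95 and 4.08 in the controls. Fdft1, squalene synthase, was at -0.11 ± 0.10, and its 3 knockouts lay between control 1 and control 2. That difference was -0.21 without control 1 and -0.02 without control 3.

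Among the 8 enzymes from lanosterol to cholesterol, Cyp51 and Hsd17b7 differed most. Cyp51, the lanosterol demethylase, had log2 signals of 1.40, 1.31 and 1.29 in the knockouts, against 1.65, 1.52 and 1.60 in the controls. All 3 knockouts lay below the lowest control, with SDs of 0.06 and 0.07 in knockouts and controls. The knockout signal was 0.834 times the control signal (95% interval 0.756 to 0.919; log2 difference -0.26 ± 0.06, limma unadjusted p = 0.00389, adjusted p = 0.199). Hsd17b7, a ketoreductase of sterol demethylation, had 0.43, 0.25 and 0.32 in the knockouts, against 0.48, 0.55 and 0.58 in the controls, again without overlap. Its difference was -0.20 ± 0.06 (unadjusted p = 0.0186, adjusted p = 0.292), and its other probe, with -0.28 ± 0.07, pointed the same way. Within the first slide row, where knockout 1 alone met the controls, Cyp51 was at -0.20 and Hsd17b7 at -0.11, values that rest on 1 knockout animal.

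The other late enzymes differed less. Msmo1, the methylsterol oxidase, had 3.49, 3.59 and 3.56 in the knockouts, against 3.59, 3.67 and 3.82 in the controls, a difference of -0.15 ± 0.07 (limma adjusted p = 0.473). Its highest knockout and its lowest control were nearly equal. Ebp, the sterol isomerase, was at -0.08 ± 0.06, Dhcr7, the reductase of a final step, at -0.07 ± 0.07 and Nsdhl, the dehydrogenase that works with Msmo1 and Hsd17b7, at -0.04 ± 0.09. Tm7sf2, a sterol reductase, was at -0.01 ± 0.05 and Sc5d, the sterol desaturase, at 0.05 ± 0.06, smaller than the SD of the controls and with signs that turned under some settings.

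Genes that sense sterol and control SREBP2 did not separate the groups. Srebf2, which encodes SREBP2 and is itself switched on by it, had log2 signals of -0.85, -0.87 and -0.74 in the knockouts, against -0.66, -0.77 and -0.61 in the controls. Only knockout 3 overlapped the controls, and the difference was -0.14 ± 0.06 (limma adjusted p = 0.434). Its dimmer probe was at 0.07 ± 0.15. Insig1, an SREBP target that retains SCAP, had -0.96, -0.84 and -0.86 in the knockouts, against -1.10, -0.83 and -0.55 in the controls. The 3 knockouts of Insig1 lay inside the range of the controls, whose SD of 0.27 was the largest among the control values of the 28 genes, and the difference was -0.06 ± 0.14. Insig2, the related gene that does not depend on SREBP in the same way, was at 0.01 ± 0.05 and Scap at 0.06 ± 0.05. The 95% interval of Insig2 ran from 0.932 to 1.09 times the control signal.

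Genes that control uptake or move sterol inside the cell also overlapped between groups. Stard4, a soluble sterol carrier and SREBP target, had log2 signals of 2.05, 1.99 and 2.08 in the knockouts, against 2.03, 2.26 and 2.34 in the controls. Control 1 lay among the knockouts, and the difference was -0.17 ± 0.09 (limma adjusted p = 0.497). The other Stard4 probe was at -0.34 ± 0.15. Npc1, which lets cholesterol out of the lysosome, had -1.32, -1.13 and -1.06 in the knockouts, against -1.13, -0.97 and -1.0 in the controls, a difference of -0.14 ± 0.08 (adjusted p = 0.577). Mylip, the LXR-induced ligase that removes lipoprotein receptors, had 2.68, 2.15 and 2.31 in the knockouts, against 2.42, 2.39 and 2.49 in the controls. Knockout 1 lay above all controls and knockouts 2 and 3 below them, and the direction turned to 0.06 without knockout 2 and to 0.24 within the first slide row, from -0.05 ± 0.14 over all arrays.

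The 3 export genes went different ways. Abca1, which loads cholesterol onto apolipoprotein particles, had log2 signals of 0.42, 0.39 and 0.54 in the knockouts, against 0.20, 0.16 and 0.08 in the controls. Every knockout lay above every control, and the gap between the groups was wider than the range within either. The knockout signal was 1.24 times the control signal (95% interval 1.11 to 1.37; log2 difference 0.30 ± 0.06, limma unadjusted p = 0.00274, adjusted p = 0.179). Abca1 had 1 probe. With array weights, a setting that called 338 genes against 26 in the reported fit, the limma adjusted p of Abca1 was 0.0482. Among the 17 other settings this was the only 1 that called it, and the differences ran from 0.26 to 0.34. Within the first slide row, where the knockouts are knockout 1 alone, the difference was 0.28, a value that rests on 1 knockout animal.

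Abcg1, which passes cholesterol to larger lipoproteins, had log2 signals of 0.30, 0.31 and 0.90 in the knockouts, against 0.57, 0.62 and 0.17 in the controls. Knockout 3 lay above all controls and the other knockouts between control 3 and the other controls. Its difference of 0.06 ± 0.20 (limma adjusted p = 0.937) turned to -0.14 without knockout 3 and to -0.09 without control 3. Nr1h3, which encodes LXR alpha, had 4.0, 3.28 and 3.92 in the knockouts, against 4.05, 4.08 and 4.20 in the controls. All knockouts lay below all controls, but knockout 2 set most of the difference of -0.37 ± 0.19 (adjusted p = 0.497), which was -0.15 without it. On the other Nr1h3 probe the values were 2.93, 2.93 and 2.91 in the knockouts, against 2.94, 3.06 and 3.09 in the controls, and there knockout 2 did not stand apart (difference -0.11 ± 0.06).

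Abca1, Abcg1 and Nr1h3 are also active in macrophages. Of 12 macrophage markers, 11 were above 0, where 52.9% of all genes were below it, and 0 passed the adjusted test. At an unadjusted p under 0.05, 6 were higher and 0 lower, against 6.69% and 6.13% of all genes. Their summed normalised signal was 78.1, 81.5 and 80.4 in the knockouts, against 73.6, 71.9 and 67.3 in the controls, with a median difference of 0.26. Among them Csf1r, the macrophage growth factor receptor, was at 0.28 ± 0.06 and Lyz2, a lysozyme, at 1.37 ± 0.32, while Cx3cr1 was at -0.19 ± 0.14. All 12 were measured, and their part in the difference of Abca1 was not tested. Of 8 adipocyte markers 7 were measured and 6 of these were below 0, with a summed signal of 25.1, 18.9 and 55.7 in the knockouts, against 53.8, 32.5 and 43.6 in the controls. Knockout 3, the array with the highest Abcg1, also had the highest sum of these. Control 3, the array with the lowest Abcg1 (0.17), had a higher sum than control 2, with its Abcg1 of 0.62. The part of adipocytes in the values of Abcg1 was not tested. Of 8 markers of the adrenal cortex, a sterol-rich gland that lies beside the kidney, only Star, Cyp21a1 and Nr5a1 passed the filter on dim probes, and the sum of these was 0.728, 0.766 and 0.644 in the knockouts and 0.643, 0.681 and 0.704 in the controls. The steroidogenic enzyme genes Cyp11a1, Cyp11b1, Cyp11b2 and Hsd3b1 and the receptor gene Mc2r did not pass.

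**Figure D2:**
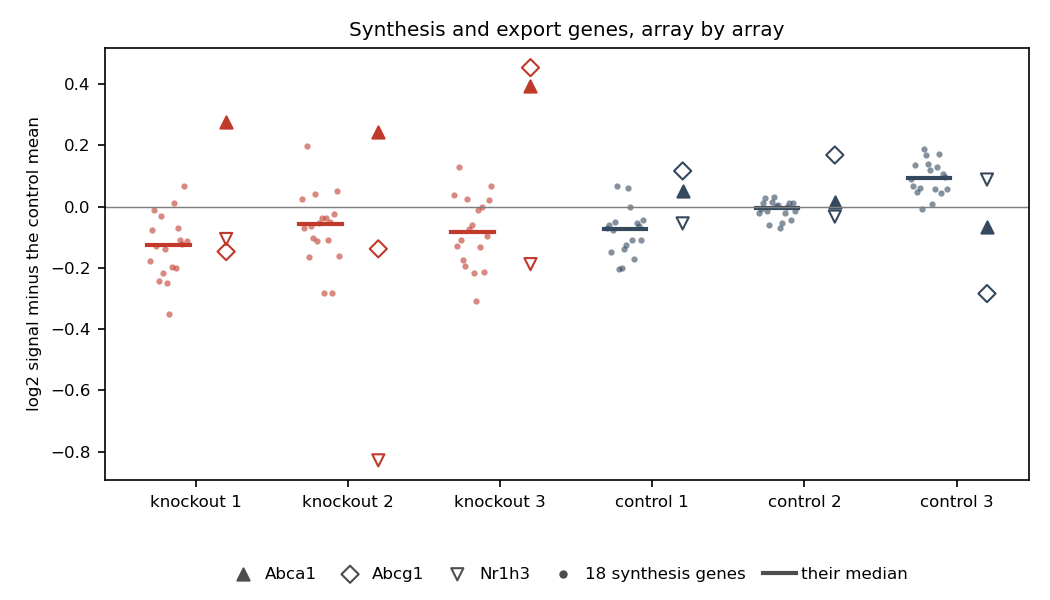
Each column is 1 array, knockouts left of controls. Dots are the 18 synthesis genes and the bar is their median, and the larger symbols are Abca1, Abcg1 and Nr1h3, all as log2 signal minus the control mean. The synthesis medians are -0.12, -0.06 and -0.08 in knockouts 1, 2 and 3 and -0.07, -0.00 and 0.09 in controls 1, 2 and 3, so control 1 lies among the knockouts.

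Set against each other array by array, synthesis and export did not separate knockouts from controls. The median of the synthesis genes, relative to the control mean, was -0.12, -0.06 and -0.08 in the knockouts, against -0.07, -0.00 and 0.09 in the controls. The lowest of the controls, control 1, fell inside the knockout range. Control 1 was the lowest control for 15 of the 18 synthesis genes and control 3 the highest for 16 of them, so the order of the controls was nearly the same from gene to gene. Of the 18 genes, 12, 8 and 9 lay below the lowest control in knockouts 1, 2 and 3. The matching shares of all genes were not counted, so these orders are not read as particular to the synthesis genes. Over all genes the medians relative to the control mean were -0.01, -0.00 and -0.01 in the knockouts, against -0.02, -0.01 and 0.03 in the controls. The median of the 3 export genes was -0.11, -0.14 and 0.39 in the knockouts, against 0.05, 0.02 and -0.07 in the controls. The synthesis median minus the export median was -0.02, 0.08 and -0.48 in the knockouts, against -0.13, -0.02 and 0.16 in the controls, with overlap, and without knockout 3 the difference between the groups turned from -0.14 to 0.03. Of the 3 export genes only Abca1 lay above every synthesis gene in all knockouts, at 0.28, 0.24 and 0.39 above the control mean. In knockout 2 the synthesis gene Mvk came close, at 0.20. Abca1 is also the member with the smallest p on these same arrays, so its place here is not a separate result.

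**Figure D3:**
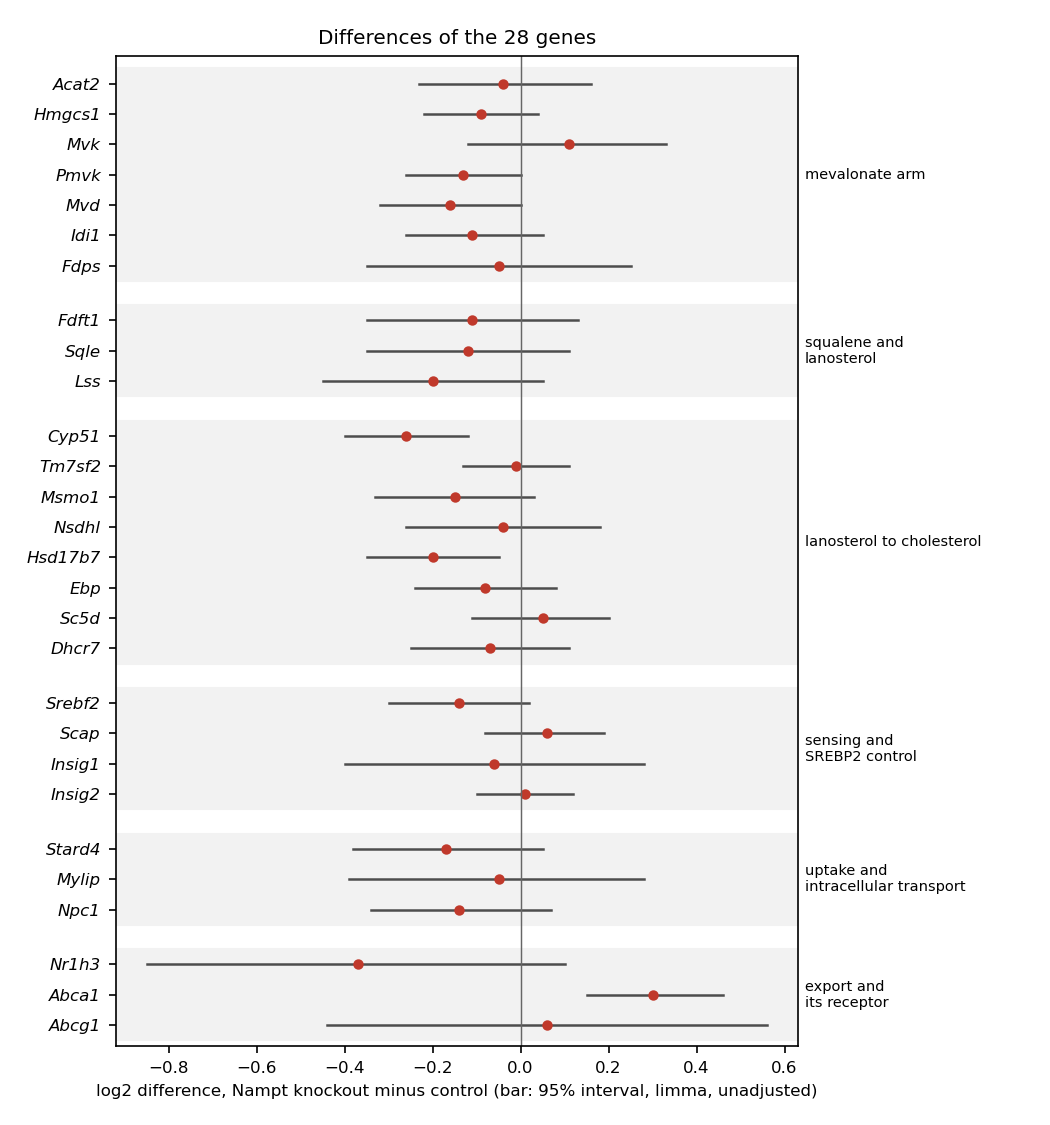
The log2 difference of each of the 28 genes, knockout minus control, is plotted with its unadjusted 95% interval from limma, by role down the page. Intervals of Pmvk, Mvd, Cyp51 and Hsd17b7 lie below 0 and that of Abca1 above it, and the interval of Nr1h3, from -0.85 to 0.10, is among the widest.

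The intervals set what these arrays could show. For 27 of the 28 genes the unadjusted 95% interval lay within a 1.5-fold change in either direction, Nr1h3 being the exception. The typical SD between animals was 0.07 in knockouts and 0.09 in controls for the synthesis genes, and 0.08 and 0.09 for all genes. The most variable members in the knockouts were Nr1h3 (SD 0.40, on the brighter of its probes), Abcg1 (0.34) and Mylip (0.27), while Abca1 had an SD of 0.08. The 28 genes had 40 probes, 39 of them well above background on every array, and 12 genes had 2 probes. Of these 12, Hmgcs1 disagreed most, with a dim probe at -3.52, -3.44 and -2.41 in the knockouts, against -3.75, -3.65 and -3.45 in the controls, where knockout 3 alone stood apart.

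Of 46 further genes of the pathway, 42 were measured and none passed the adjusted test (limma). At an unadjusted p under 0.05, 2 were higher and 1 lower, against 6.69% and 6.13% of all genes, with a median difference of -0.01. Erlin1, which helps degrade the mevalonate pathway's reductase and restrains SREBP, had log2 signals of 4.05, 4.10 and 4.08 in the knockouts, against 4.18, 4.17 and 4.32 in the controls, a difference of -0.15 ± 0.06 (adjusted p = 0.361). Cyp7b1, which hydroxylates oxysterols, had 5.19, 5.25 and 5.26 in the knockouts, against 5.05, 5.05 and 5.09 in the controls. These groups did not overlap, and the difference was 0.17 ± 0.05 (unadjusted p = 0.00994, adjusted p = 0.251). Cyp39a1, another oxysterol hydroxylase, was at 0.19 ± 0.11 and Ch25h, which makes an oxysterol, at -0.11 ± 0.11.

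Among LXR partners and targets, 8 of 10 were measured. Srebf1, the LXR target that drives fatty acid synthesis, had log2 signals of -0.85, -0.90 and -0.81 in the knockouts, against -0.93, -0.45 and -0.38 in the controls, a difference of -0.26 ± 0.15 (limma adjusted p = 0.525). Its groups overlapped through control 1. Abcg4, a relative of Abcg1, was at 0.22 ± 0.09 and Pltp, the phospholipid transfer protein, at 0.25 ± 0.17, both with overlapping groups. The intestinal-type exporters Abcg5 and Abcg8 did not pass the filter on dim probes. Isoprenoid and sterol enzymes included Dhdds and Nus1, the subunits that make dolichol, at -0.11 ± 0.05 and -0.18 ± 0.09, and Ggps1, which makes geranylgeranyl diphosphate, at -0.10 ± 0.06. Faxdc2 had no probe matched. Of the genes of lysosomal exit, esterification and transport, Gramd1b was at -0.19 ± 0.09, Osbp, the oxysterol-binding protein, at -0.11 ± 0.06 and Gramd1c at 0.09 ± 0.05. The lipoprotein receptors Scarb1, Cd36 and Lrp1 were at 0.08 ± 0.07, 0.12 ± 0.12 and 0.13 ± 0.20, all within the spread between animals, and Lrp8 did not pass the filter.

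**Figure D4:**
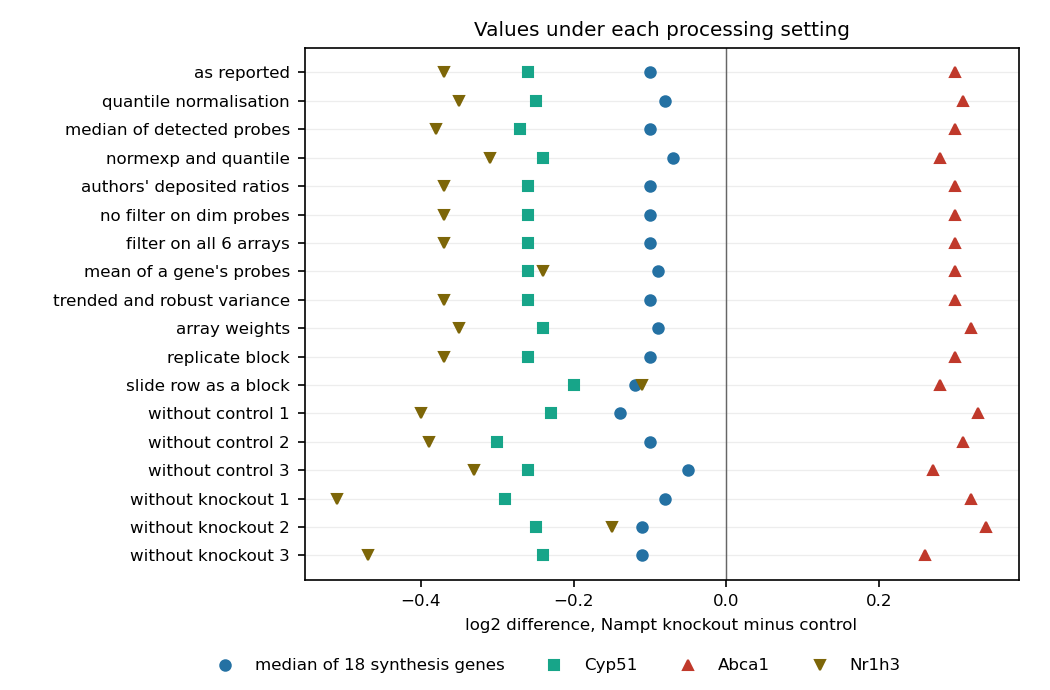
Log2 differences, knockout minus control, are shown for the median of the 18 synthesis genes and for Cyp51, Abca1 and Nr1h3 under the reported processing and each of 17 other settings, down the page. The synthesis median stays between -0.14 and -0.05, Abca1 between 0.26 and 0.34, and Nr1h3 moves most, from -0.51 without knockout 1 to -0.11 within the first slide row. Trended and robust variance, the replicate block and the filter settings repeat the reported values.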

How the data were processed

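Whole-kidney RNA of 3 Nampt knockout and 3 control mice was hybridised to Agilent SurePrint G3 8x60K arrays, per the labels. The scanner files hold spot intensity, with local background subtracted and spatial trends removed per array, per the file headers. The authors made them with Agilent Feature Extraction (version 10.7.1.1 in the submitters' processing notes). A deposited series table holds a linear ratio per probe, which matched each array's signal over a constant, within 1%, for at least 99.99% of probes with a ratio above 1; the software behind it was not given. Outlier spots were left out, spots of a probe were averaged, and the 75th percentile of 55681 probes was subtracted on the log2 scale from the deposited signals. The filter kept 32948 probes, those well above background on every array of either group. RefSeq (GRCm38.p6) served only for names and promoters, and the brightest kept probe of a gene was used if it had a value on every array. Versions were limma 3.58.1, R 4.3.3, Python 3.11.15, pandas 2.3.3 and matplotlib 3.10.9. The limma fit (lmFit and eBayes, group as the only term) covered 15307 genes, with Benjamini-Hochberg adjustment, and was tested on simulated data. An exact two-sided permutation test of 3 against 3 cannot go below 0.1. Replicates are mice as numbered in the labels. The members, gene lists and tests were chosen with earlier results of these data known. All 28 members are named, and of other pathway genes up to 3 of smallest p per list. Part of what that rule takes is not reported here. The markers Csf1r, Lyz2, Cx3cr1, Havcr1, Lcn2, Sox9 and Clu are outside that rule and were picked with their values in view. Alternatives were other scalings, background corrections (normexp, offset 50, on median spot signals), filters, probe rules, variances, blocks and each array left out.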

Additional observations from a re-analysis of the deposited data

How the results depend on the processing

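Of 476 values of single members under 17 other settings, 20 turned sign, all of them values within about 0.25 of 0 on the log2 scale, and 17 of the 28 genes never turned. Trended and robust variance, the replicate block and the filter settings left every member's difference as reported, so no sign could turn there. The deposited ratios are the same signals over a constant per array, so their values could hardly move. The 476 values are therefore not separate checks. With slide row as a block, Mvk was at -0.01, Tm7sf2 at 0.01, Mylip at 0.24, Abcg1 at -0.15 and the export median at -0.11. Without control 3, Acat2 was at 0.01, Fdps at 0.04, Tm7sf2 at 0.02, Nsdhl at 0.05, Insig1 at 0.08, Abcg1 at -0.09 and the export median at -0.09. Without control 1, Sc5d was at -0.01. Without knockout 1, Acat2 and Fdps were at 0.03 and Insig2 at -0.01, and without knockout 2 Mylip was at 0.06. Without knockout 3, Abcg1 and the export median were at -0.14, and the synthesis median minus the export median was at 0.03, with a range from -0.25 to 0.03 over arrays left out. Array weights put Acat2 and Tm7sf2 at 0.02, and normexp with quantile normalisation put Tm7sf2 at 0.05. The mean of a gene's probes put Hmgcs1 at 0.20, which averages its reported probe at -0.09 with its dim probe at 0.49. The cause of the other turns was not tested. At the other end of the values with 1 array left out were Acat2 at -0.08, Tm7sf2 at -0.04, Nsdhl at -0.13, Sc5d at 0.09, and Insig1 and Mylip at -0.20. The synthesis median ran from -0.14 to -0.05 over all settings and the export median from -0.14 to 0.16 over arrays left out. In counts chosen after seeing the data, leaving out each array left 12 to 17 of 18 synthesis genes below 0 and 6 to 9 with every knockout below every control, while over all genes 47.5% to 55.3% were below 0 and 13.5% to 18.9% lay wholly below. With an array left out, differences ran from -0.21 to -0.02 for Fdft1, -0.19 to -0.05 for Sqle, -0.28 to -0.13 for Lss, -0.20 to -0.08 for Msmo1, -0.11 to -0.03 for Ebp, -0.14 to -0.02 for Dhcr7, -0.15 to -0.07 for Idi1, 0.03 to 0.17 for Mvk, 0.02 to 0.08 for Scap, -0.26 to -0.11 for Stard4 and -0.19 to -0.06 for Npc1. The extremes came without control 1 or control 3 for Fdft1, Sqle, Msmo1, Mvk and Stard4, without knockout 3 or knockout 2 for Dhcr7 and without knockout 3 or knockout 1 for Npc1. The number of genes called, 26, was 11 with quantile normalisation, 77 with no filter on dim probes, 57 with trended and robust variance, 338 with array weights and 16 with slide row as a block, and ran from 0 to 57 over arrays left out (0 without control 2 or control 3, where 1436 and 1550 had an unadjusted p under 0.05). Abca1 was called with array weights (0.32, adjusted p = 0.0482). With the replicate number as a block no gene was called (1636 at an unadjusted p under 0.05) and the synthesis median was -0.10; deviations of same-numbered arrays correlated at 0.104, -0.096 and -0.025, so the numbers were not taken to pair the mice (only knockout 1 correlated best with its own number). The variance settings give no value for synthesis minus export. Precision is limited by the number of animals, and no spot was saturated.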
